A study of Mus musculus with 12 samples.

Results

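Antiviral effector genes are interferon-stimulated genes whose protein products act on viral entry, replication or release. The set described here was a list of 10 mouse genes, namely Ifit1, Ifit2, Ifit3, Rsad2, Cmpk2, Mx1, Mx2, Bst2, Ifitm3 and Ifi44, and its members were found through the RefSeq accession that each array probe carries. Of the 10 genes, 8 were matched to 12 probes, among 41174 probes in all, and those of Mx1 and Mx2 were not matched, so both genes were not analysed here. Each of the 8 matched genes entered the tests, which covered 18446 features (a feature being a gene, or a probe target with no gene name).

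Expression was measured in mouse embryonic fibroblasts, labelled ATM-WT or ATM-KO. Atm encodes a protein kinase activated by breaks in both strands of DNA. Each genotype was irradiated at 4.32 Gy or left nonirradiated, and cultures were kept for 72 h. The resulting 4 groups held 3 samples each, on 12 single-colour arrays. The knockout allele, the mouse strain, the age of the embryos and whether replicates came from separate cultures are not given in the sources used here. The spread behind each p-value is that between these samples, and part of it may be technical.

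Type I interferons are secreted when cells sense foreign or misplaced nucleic acid. They bind a receptor whose kinases activate transcription factors that bind the interferon-stimulated response element in the promoters of their target genes. A different element, the gamma-activated site, is known from the response to interferon gamma. Fibroblasts both secrete interferon beta and respond to it.

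The promoters of the 8 matched genes were read from RefSeq windows on build GRCm38.p6, which run from 250 bases before the annotated start to 50 after it. The core of the interferon-stimulated response element was searched on both strands as TTTC, any 2 bases, then TTTC, and the gamma-activated site as TTCNNNGAA, a sequence that reads the same on both strands. The response element core was present in a window of 5 of the 8 genes, against 3.99% of the 27025 genes with a window and 3.44% of all 32851 windows. The gamma-activated site was present in windows of 3 of the 8 genes (Ifit2, Bst2 and Ifitm3), against 9.55% of the genes and 8.3% of all windows. The stretches below hold the response element cores, printed along the strand of the gene with the matches in capitals, and are shown because the 5 genes that hold them fall on both sides of the test in the comparisons that follow.
Ifit1 (plus strand, chr19:34640765-34640833): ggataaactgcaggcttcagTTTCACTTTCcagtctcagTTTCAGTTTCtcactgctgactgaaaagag
Ifit3 (plus strand, chr19:34583353-34583436): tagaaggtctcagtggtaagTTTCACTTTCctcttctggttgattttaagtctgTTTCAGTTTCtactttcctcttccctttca
Rsad2 (minus strand, chr12:26456543-26456592): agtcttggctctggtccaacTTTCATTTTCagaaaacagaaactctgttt
Bst2 (minus strand, chr8:71537567-71537622): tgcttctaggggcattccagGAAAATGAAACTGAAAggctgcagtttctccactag
Ifitm3 (minus strand, chr7:141010716-141010742): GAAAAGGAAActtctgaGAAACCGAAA

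Ifit1 and Ifit3 each held 2 cores on the strand of the gene. Those of Ifit1 began 104 and 85 bases before the start, and those of Ifit3 156 and 122 bases before it. Rsad2 held 1 core, beginning 120 bases before its start. Bst2 and Ifitm3 held 2 cores each on the opposite strand, which overlapped one another in Bst2 and lay within the first 29 bases after the start in Ifitm3. In both genes a gamma-activated site overlapped a core. No core was found in the windows of Cmpk2, Ifi44 or either annotated start of Ifit2, which says only that these letters are not in those windows. The windows of Ifit3 and of its close relative Ifit3b share a run of 169 identical bases that contains both cores, and the matching stretch of Ifit3b has the sequence printed for Ifit3. Rsad2 and Cmpk2 are neighbours in the gene order, as are Ifit2 and Ifit3.

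**Figure D1:**
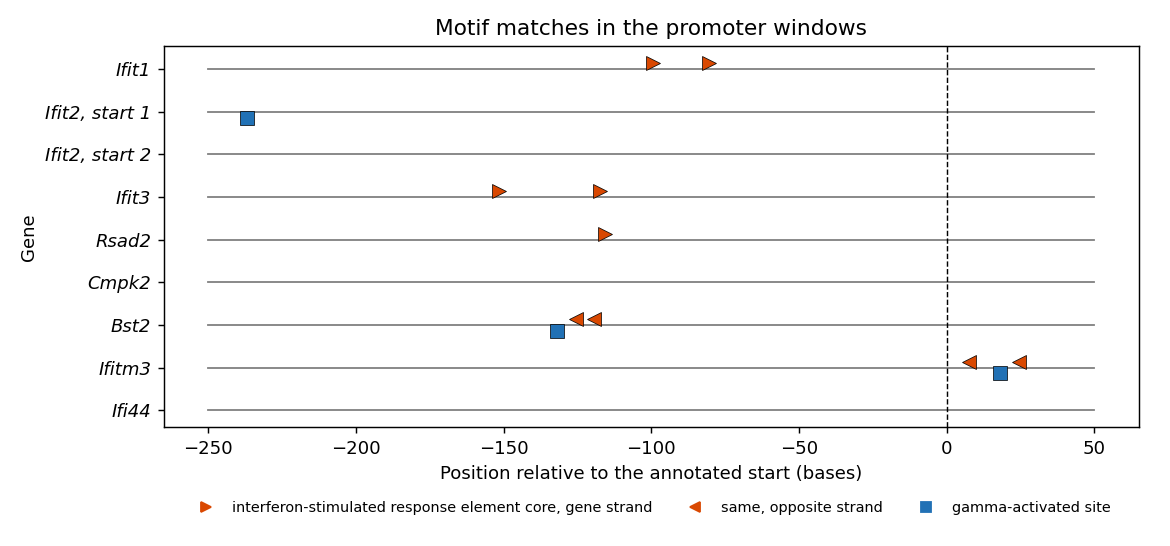
Positions of motif matches along the promoter windows of the 8 genes, in bases relative to the annotated start (dashed line). Orange triangles are response element cores and point along the strand of the match, blue squares are gamma-activated sites, and Ifit2 has a line for each of its 2 annotated starts. Matches of Ifit1, Ifit3, Rsad2 and Bst2 lie upstream of the start and those of Ifitm3 after it.

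Levels below are log2 values of the background-corrected signal minus the 75th percentile of the same array, so that 0 is the 75th percentile. They are compared within a probe and not between probes. The exception is the sums of cell type markers, which add linear levels over probes and weigh bright probes most. The 75th percentile of signal was 379 to 757 over the arrays, 55.3% to 64.5% of probes were well above background, and 0 spots were saturated. All 12 fibroblast markers examined were well above background on every array. The Atm probe with the highest signal was well above background on 2 of 3 nonirradiated and 3 of 3 irradiated ATM-WT arrays, and among ATM-KO arrays on 0 of the nonirradiated and 1 of the irradiated ones. Its mean levels were -4.48, -4.02, -6.21 and -6.55 in nonirradiated ATM-WT, irradiated ATM-WT, nonirradiated ATM-KO and irradiated ATM-KO cells, and neither genotype difference passed the test (adjusted p = 0.475 nonirradiated and 0.226 irradiated). In the same order, a second Atm probe had mean levels of -5.27, -4.51, -6.42 and -6.42 and stood well above background on 2, 3, 1 and 3 arrays. The sources used here do not say whether either probe lies in the deleted part of the gene. Pairs of arrays shared slides. Slide 1 held replicates 1 and 2 of ATM-WT cells, slide 2 held replicate 3 of ATM-WT and replicate 1 of ATM-KO cells, and slide 3 held replicates 2 and 3 of ATM-KO cells, each as a nonirradiated and an irradiated array. Position on the slide alternated with irradiation, so those 2 cannot be told apart.

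Irradiation of ATM-WT cells raised 6 of the 8 genes, by 5.22-fold to 16.2-fold (3 arrays per group, limma with Benjamini-Hochberg adjustment over all 18446 features, as for each adjusted p below). Ifit1, Ifit3, Rsad2, Cmpk2, Bst2 and Ifi44 passed the test, and Ifit2 and Ifitm3 did not. Of all features tested, 0.423% were called higher in this comparison. The median log2 difference of the 8 genes was 3.03 and that of all features -0.02. On 6 of the 8 genes every irradiated array lay above every nonirradiated array, which held for 4.5% of all features.

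The Ifit genes encode tetratricopeptide-repeat proteins that bind viral RNA, and Ifit1 recognises RNA whose cap lacks the methylation of host mRNA. Ifit1 levels were 0.49, 0.06 and 0.74 on the nonirradiated ATM-WT arrays and 4.37, 3.12 and 3.29 on the irradiated ones, in the order of replicates 1 to 3. The groups were far apart, and replicate 1 was the highest of the irradiated arrays. The log2 difference was 3.16 ± 0.362 (SE, adjusted p = 0.00155), or 8.95-fold.

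Ifit3 had levels of 0.70, 1.27 and 1.51 on nonirradiated and 5.29, 4.27 and 4.57 on irradiated ATM-WT arrays. The groups again did not overlap. Its log2 difference was 3.55 ± 0.384 (SE, adjusted p = 0.00101), or 11.7-fold. Ifit3 and Ifit3b are close copies, and since probe sequences were not used here, signal from one on the probe of the other was not tested.

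Ifit2 levels were -2.64, -4.37 and -2.80 on nonirradiated and -0.89, -2.74 and -2.52 on irradiated ATM-WT arrays. The 2 groups overlapped, with nonirradiated replicate 2 far below and irradiated replicate 1 far above the others. The log2 difference of 1.22 ± 0.672 did not pass the test (SE, adjusted p = 0.947, 95% interval -0.24 to 2.68). A dimmer Ifit2 probe gave a log2 difference of 1.77, and it was not well above background on 1 of the nonirradiated ATM-WT arrays.

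Rsad2 encodes viperin, an enzyme that makes a chain-terminating nucleotide from CTP, and Cmpk2 is a mitochondrial nucleotide kinase that can supply CTP to it. Rsad2 levels were -3.60, -3.57 and -3.97 on nonirradiated and 0.99, -0.07 and -0.0049 on irradiated ATM-WT arrays. The nonirradiated arrays lay within less than 1 log2 unit of one another and all below the irradiated ones. With 4.02 ± 0.479 (SE, adjusted p = 0.00201), or 16.2-fold, Rsad2 had the highest log2 difference of the 8 genes. The other 2 Rsad2 probes were not well above background on any nonirradiated ATM-WT array. Their log2 differences of 3.77 and 3.98 were thus taken against signal near background, and no fold is given.

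Cmpk2 levels were -4.30, -3.77 and -4.21 on nonirradiated and -0.93, -1.17 and -1.46 on irradiated ATM-WT arrays. Replicates were close within each group and the groups were apart. The log2 difference was 2.91 ± 0.364 (SE, adjusted p = 0.00273), or 7.49-fold. A dimmer Cmpk2 probe was not well above background on any nonirradiated ATM-WT array. Its log2 difference of 2.51 was thus taken against signal near background, and no fold is given.

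Bst2 encodes tetherin, which holds budding virions at the cell surface. Its levels were 4.56, 5.07 and 5.08 on nonirradiated and 7.05, 7.42 and 7.39 on irradiated ATM-WT arrays. The groups did not overlap, and replicate 1 was the lowest array in each. On the log2 scale Bst2 differed by 2.38 ± 0.326 (SE, adjusted p = 0.00453), or 5.22-fold.

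Ifitm3, which blocks the fusion of virus and endosome membranes, had levels of 6.40, 6.81 and 7.24 on nonirradiated and 6.78, 7.57 and 7.56 on irradiated ATM-WT arrays. The groups overlapped. The log2 difference was 0.49 ± 0.310 (SE, adjusted p = 1.0, 95% interval -0.19 to 1.16), which did not pass the test.

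Ifi44, an interferon-induced protein with reported antiviral activity, had levels of -3.05, -4.33 and -3.14 on nonirradiated and 1.13, -0.38 and 0.00 on irradiated ATM-WT arrays. Replicate 2 was the lowest array of each group, and the groups were apart. Ifi44 thus differed by 3.76 ± 0.516 (log2, SE, adjusted p = 0.00457), or 13.5-fold.

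**Figure D2:**
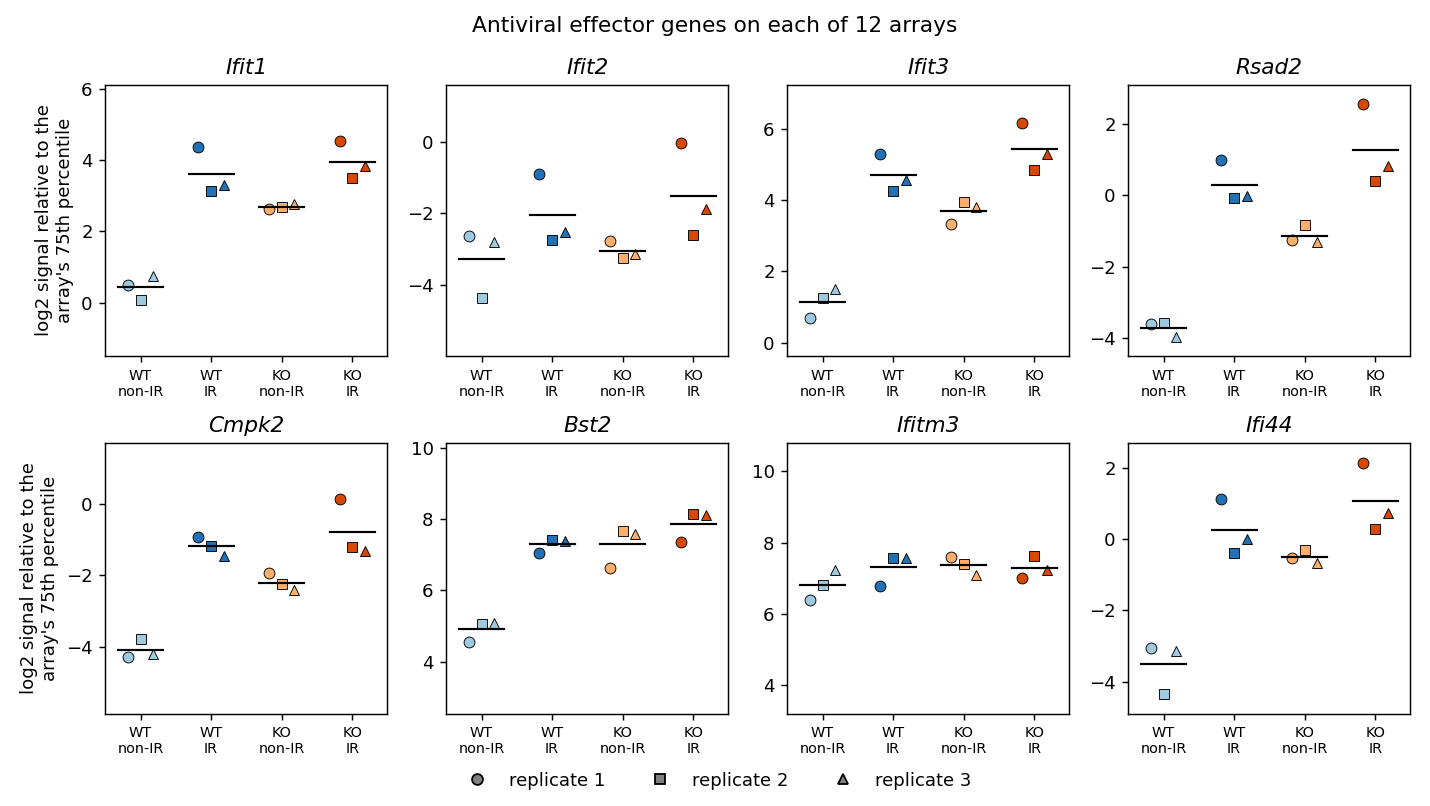
Log2 signal relative to the 75th percentile of each array (y axis, a span of equal size in every panel) for the 8 genes, in ATM-WT and ATM-KO cells without (non-IR) and with irradiation (IR). Points are single arrays, with the replicate given by shape, and horizontal lines are group means. For Ifit1, Ifit3, Rsad2, Cmpk2, Bst2 and Ifi44 the 3 nonirradiated ATM-WT arrays lie below the other 9, while Ifitm3 overlaps across all 4 groups.

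The 6 calls in ATM-WT cells were also made with same-numbered arrays as pairs, a fit in which 1.62% of all features were called higher. By slide, with no test since slide 2 held 1 ATM-WT pair, the log2 difference was 4.04 on slide 1 and 3.96 on slide 2 for Rsad2, and 2.42 and 2.31 for Bst2. For Ifit1 it was 3.47 and 2.55, so the size differed more between slides than for Bst2. With normexp background correction and an offset, Rsad2 (2.29), Cmpk2 (0.91) and Ifi44 (2.0) kept a positive log2 difference that did not pass the test, and Ifit1, Ifit3 and Bst2 passed. An added offset shrinks differences of dim probes by its construction.

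In nonirradiated cells, ATM-KO cells had higher levels of the same 6 genes than ATM-WT cells, by 3.71-fold to 8.01-fold. Of all features tested, 0.39% were called higher in this comparison. The median log2 difference of the 8 genes was 2.32 and that of all features 0.04. Every nonirradiated ATM-KO array lay above every nonirradiated ATM-WT array for these 6 genes, which held for 8.29% of all features. This comparison and the one of irradiation in ATM-WT cells share the nonirradiated ATM-WT arrays, so their calls are not independent.

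Ifit1 levels on nonirradiated ATM-KO arrays were 2.62, 2.67 and 2.75, and those of Ifit3 were 3.32, 3.95 and 3.81. Ifit1 varied little among these arrays (SD 0.0656, n = 3). The log2 differences from nonirradiated ATM-WT cells were 2.25 ± 0.362 for Ifit1 (SE, adjusted p = 0.0106) and 2.54 ± 0.384 for Ifit3 (SE, adjusted p = 0.00734). Ifit2 levels were -2.78, -3.25 and -3.14, between those of the ATM-WT arrays, and its log2 difference of 0.21 ± 0.672 did not pass the test (SE, adjusted p = 0.994, 95% interval -1.25 to 1.68). Its dimmer probe gave 1.03.

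Rsad2 levels were -1.25, -0.84 and -1.31 on nonirradiated ATM-KO arrays, and those of Cmpk2 were -1.94, -2.25 and -2.41. Both genes thus lay between the nonirradiated and the irradiated ATM-WT arrays. Rsad2 was higher than in nonirradiated ATM-WT cells by 2.58 ± 0.479 (log2, SE, adjusted p = 0.0263) and Cmpk2 by 1.89 ± 0.364 (log2, SE, adjusted p = 0.0318).

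Bst2 levels were 6.64, 7.65 and 7.58 on nonirradiated ATM-KO arrays, a mean of 7.29 against 7.29 in irradiated ATM-WT cells. Tetherin mRNA was the one of the 6 in which nonirradiated ATM-KO and irradiated ATM-WT cells had means that differed by less than 0.01 log2 units. Its log2 difference from nonirradiated ATM-WT cells was 2.39 ± 0.326 (SE, adjusted p = 0.00349). Ifi44 levels were -0.53, -0.31 and -0.68, with a log2 difference of 3.00 ± 0.516 (SE, adjusted p = 0.0159). Ifitm3 levels were 7.60, 7.39 and 7.09, and its log2 difference of 0.54 ± 0.310 did not pass the test (SE, adjusted p = 0.853, 95% interval -0.13 to 1.22).

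The count of 6 rested on few arrays and on the treatment of slides. Without nonirradiated ATM-KO replicate 2 only Bst2 passed the test, and without nonirradiated ATM-WT replicate 2 or ATM-KO replicate 3 only Ifit3 and Bst2 did. In this order, these fits called 0.309%, 0.466% and 0.401% of all features in either direction. The log2 differences of the 6 genes without replicate 2 of ATM-KO cells were 1.92 to 2.90. With slide as a fixed term, Cmpk2 alone passed (adjusted p = 0.0186) and the other 5 were 1.67 to 3.47 higher. In that fit only slide 2 sets the genotype difference averaged over both treatments. The irradiation differences in it come from the pairs on every slide, so its values are not those of slide 2 alone. Within slide 2, where each group has a single array, the log2 differences were 1.88 for Ifit1, 1.81 for Ifit3, 2.71 for Rsad2, 2.27 for Cmpk2, 1.56 for Bst2 and 2.61 for Ifi44. Normexp background correction left Ifit1, Ifit3 and Bst2 past the test.

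Markers of macrophages and blood cells moved with genotype as well, in the opposite direction. The summed linear level of the 11 markers with a probe, in units of the 75th percentile, was 3.15 to 5.84 in nonirradiated ATM-WT cells, 2.30 to 3.53 in irradiated ATM-WT cells, 0.311 to 0.651 in nonirradiated ATM-KO cells and 0.414 to 0.622 in irradiated ATM-KO cells. Between 9 and 11 of these markers were well above background on nonirradiated ATM-WT arrays and between 4 and 8 on nonirradiated ATM-KO arrays. In bulk samples, fewer cells of a type and less RNA per cell cannot be told apart. Of 6 markers of plasmacytoid dendritic cells, a source of interferon, Cd209d was not well above background on any array and Siglech on 1 array only. Tcf4, which was well above background on all 12 arrays at group means of 1.79 to 2.29 (log2), made up most of the summed level, which was 2.76 to 5.97 in nonirradiated ATM-WT, 3.36 to 6.13 in irradiated ATM-WT, 2.75 to 4.21 in nonirradiated ATM-KO and 4.81 to 5.72 in irradiated ATM-KO cells. The 6 epithelial markers summed to 1.0 to 2.29 and 0.997 to 4.48 in nonirradiated ATM-WT and ATM-KO cells, and the 6 endothelial markers to 0.586 to 0.669 and 0.222 to 0.572. The part of these cell types in the antiviral gene levels was not tested.

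**Figure D3:**
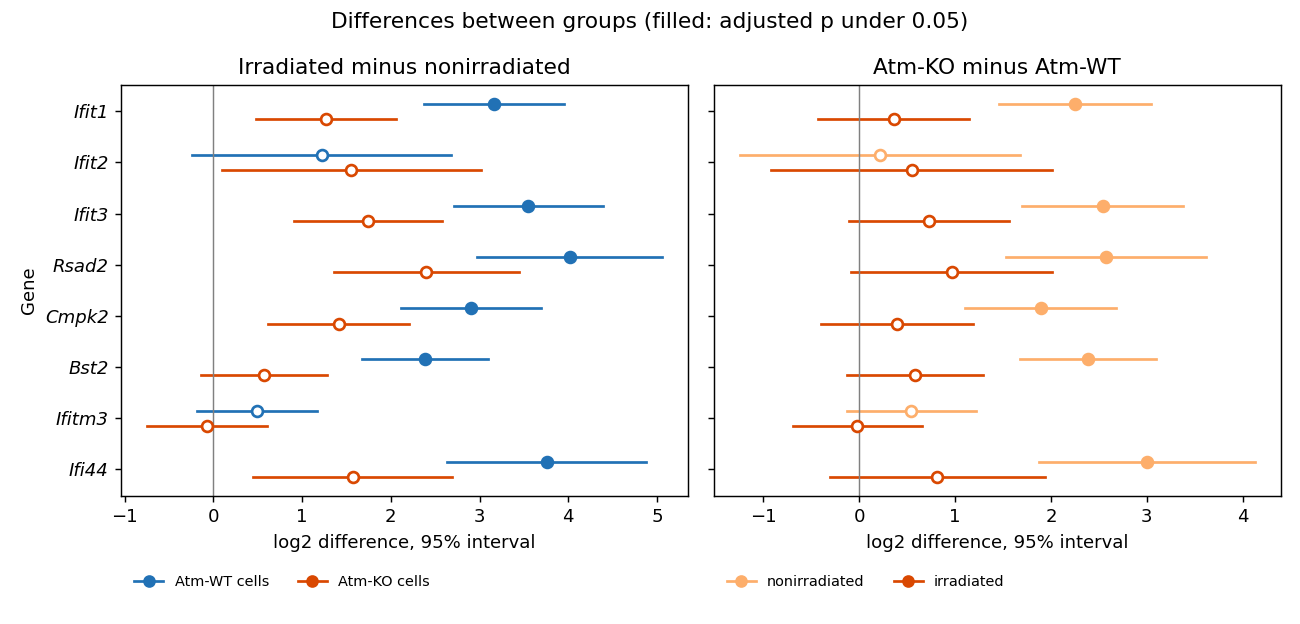
Log2 differences (points) with 95% intervals (lines) for the 8 genes. The left panel gives irradiated minus nonirradiated cells of each genotype and the right panel ATM-KO minus ATM-WT cells without and with irradiation, and filled points have an adjusted p under 0.05. Filled points appear for 6 genes in ATM-WT cells on the left and for the same 6 genes in nonirradiated cells on the right.

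In ATM-KO cells, irradiation gave positive log2 differences for 7 of the 8 genes, and none passed the test with arrays unpaired (limma, lowest adjusted p = 0.175). Of all features tested, 0.00542% were called higher. The unadjusted p was under 0.05 for 6 of the 8 genes, against 7.93% of all features, and every irradiated array lay above every nonirradiated array for 6 genes, against 6.7% of all features. The median log2 difference of the 8 genes was 1.48 and that of all features -0.05. The deviations of same-numbered ATM-KO arrays from their group means correlated at 0.269 to 0.510, against up to 0.336 for differently numbered ones. In the fit with same-numbered arrays as pairs 1.15% of all features were called higher, among them Rsad2 (adjusted p = 0.0286) and Cmpk2 (adjusted p = 0.0312).

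Rsad2 levels on irradiated ATM-KO arrays were 2.56, 0.41 and 0.82, above all nonirradiated ATM-KO arrays. Replicate 1 stood apart as the highest. The log2 difference was 2.40 ± 0.479 unpaired and 2.40 ± 0.417 with pairs (SE), or 5.28-fold. For Cmpk2 the irradiated levels were 0.15, -1.21 and -1.31, again with replicate 1 highest, and the log2 difference was 1.41 ± 0.364 unpaired and 1.41 ± 0.255 with pairs (SE). Without replicate 1 of every group, an alternative chosen after the data were seen, neither gene passed with pairs (Rsad2 1.69, adjusted p = 0.104; Cmpk2 1.07, adjusted p = 0.0933). That fit called 0 of all 18446 features for irradiation of ATM-KO cells, so the loss is not particular to these genes.

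Ifit1 levels were 4.54, 3.50 and 3.82 on irradiated ATM-KO arrays, Ifit3 levels were 6.17, 4.84 and 5.30, and Ifi44 levels were 2.15, 0.30 and 0.75. In all 3 genes the irradiated arrays lay above the nonirradiated ones and replicate 1 was the highest. The log2 differences were 1.27 ± 0.362, 1.74 ± 0.384 and 1.57 ± 0.516 (SE), with adjusted p of 0.0647, 0.0663 and 0.0653 in the paired fit, which did not pass. Ifit2 levels were -0.02, -2.61 and -1.88, with a log2 difference of 1.55 ± 0.672 (SE) that passed neither fit.

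Bst2 levels were 7.37, 8.13 and 8.10 on irradiated ATM-KO arrays and overlapped the nonirradiated ones. Its log2 difference was 0.57 ± 0.326 (SE, adjusted p = 0.746, 95% interval -0.13 to 1.28), which did not pass. Ifitm3 levels were 7.0, 7.61 and 7.24, and its log2 difference was -0.07 ± 0.310 (SE, adjusted p = 0.973). For Ifitm3 the sign turned with quantile normalization, and the value is small against its error.

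The sizes of the irradiation difference in the 2 genotypes were then compared with an interaction term. The difference, ATM-KO minus ATM-WT, was negative for 7 of the 8 genes, and none was called (limma, adjusted p = 1.0 for each, unadjusted p under 0.05 for 6, against 0.9% of all features). Of all features tested, 0.00542% were called lower, and 0.0217% in the paired fit, where again none of the 8 genes was called. On the log2 scale the difference was -1.89 ± 0.513 for Ifit1, -1.81 ± 0.543 for Ifit3, -1.62 ± 0.678 for Rsad2, -1.49 ± 0.514 for Cmpk2, -1.81 ± 0.461 for Bst2 and -2.19 ± 0.730 for Ifi44 (SE). Bst2 had the lowest adjusted p of these in the paired fit, at 0.0708. Ifit2 was the gene with a positive value, 0.33 ± 0.950, and Ifitm3 had -0.56 ± 0.438 (SE). The sign of Ifit2 turned when its probes were averaged, and that of Cmpk2 with normexp background correction.

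The single ATM-KO pair on slide 2 gave larger irradiation differences than the 2 pairs on slide 3 for 7 of the 8 genes. For Rsad2 the ATM-KO pairs gave 3.81, 1.26 and 2.13 and the ATM-WT pairs 4.59, 3.50 and 3.96, in replicate order. Within slide 2 the Rsad2 values of the 2 genotypes, 3.81 in ATM-KO and 3.96 in ATM-WT cells, differed by -0.15, and those of Ifit3 by -0.21. Bst2 differed from both, since its ATM-KO pairs gave 0.73, 0.48 and 0.52 and its ATM-WT pairs 2.49, 2.35 and 2.31, a difference of -1.58 within slide 2. The remaining differences within slide 2 were -0.63 for Ifit1, 2.48 for Ifit2, -0.66 for Cmpk2, -0.92 for Ifitm3 and -0.46 for Ifi44, each from a single pair per genotype. Slides 1 and 3 hold 1 genotype each, so slide and genotype cannot be told apart for the other pairs.

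**Figure D4:**
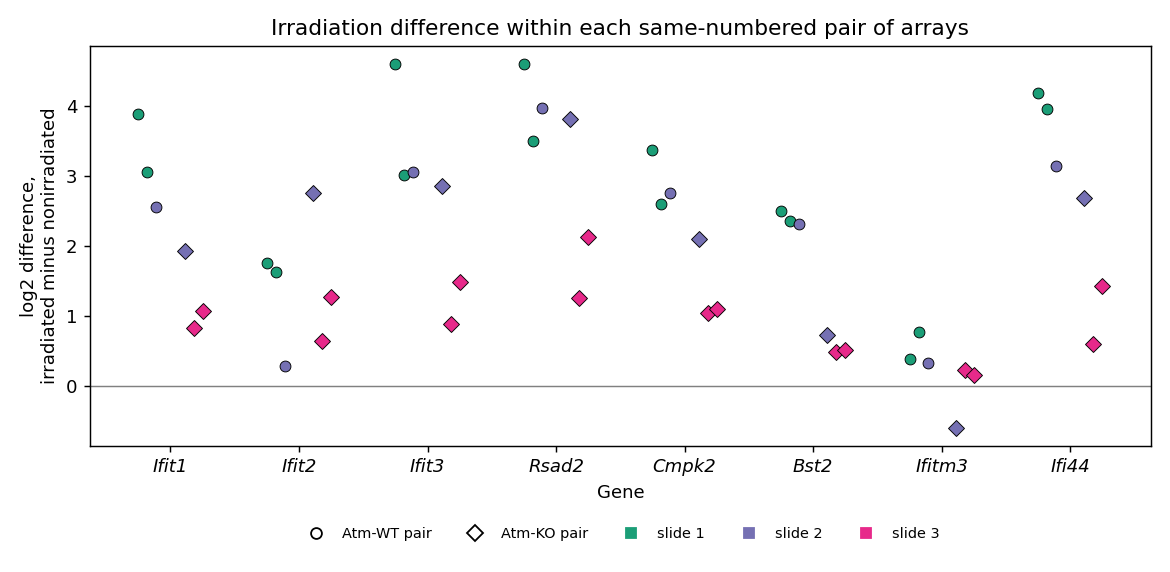
Irradiated minus nonirradiated log2 difference of each same-numbered pair of arrays (y axis) for the 8 genes, with ATM-WT pairs as circles, ATM-KO pairs as diamonds and slides by colour. For Bst2 all ATM-KO pairs lie below all ATM-WT pairs, at 0.48 to 0.73 against 2.31 to 2.49, while for Rsad2 the ATM-KO pair on slide 2 (3.81) lies among the ATM-WT pairs.

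Among irradiated cells, ATM-KO and ATM-WT arrays overlapped for every one of the 8 genes, while 3.12% of all features lay wholly higher and 3.74% wholly lower in ATM-KO cells. None of the 8 was called (limma, adjusted p = 1.0 for each), and the unadjusted p was under 0.05 for 0 of them, against 5.23% of all features. Of all features tested, 0.0596% were called higher in this comparison. The log2 differences were -0.02 to 0.96, with a median of 0.56 against -0.01 for all features. Rsad2 had the highest value, 0.96 ± 0.479 (SE, 95% interval -0.08 to 2.01), and Ifit1 had 0.36 ± 0.362 (SE, 95% interval -0.43 to 1.15). These intervals include no difference and also, for Rsad2, a fold of 4.02. Without replicate 1 of every group, chosen after the data were seen, Bst2 alone of the 8 was called, at 0.71 (adjusted p = 0.0283), in a fit that called 1044 of all features (5.66%). With slide as a fixed term its sign turned.

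Ordered by group mean, Ifit1, Ifit3, Rsad2, Cmpk2 and Ifi44 ran from nonirradiated ATM-WT through nonirradiated ATM-KO and irradiated ATM-WT to irradiated ATM-KO cells. The last 2 groups overlapped for all 5 genes, and for Ifi44 the middle 2 overlapped also. Bst2 had its lowest level in nonirradiated ATM-WT cells, and its other groups overlapped. Ifit2 had the same order of means, with overlap within each treatment and between treatments in ATM-WT cells, and Ifitm3 overlapped throughout. With each gene centred on its own mean over the 12 arrays, the average over the 8 genes was -1.96 ± 0.206 in nonirradiated ATM-WT, -0.03 ± 0.0963 in nonirradiated ATM-KO, 0.72 ± 0.390 in irradiated ATM-WT and 1.27 ± 0.590 in irradiated ATM-KO cells (log2, SD, n = 3).

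Across the 12 arrays, which share the group structure and the scaling, Ifit1 and Ifi44 had the highest correlation of any pair (Pearson's r = 0.989, n = 12, a description). The neighbours Rsad2 and Cmpk2 followed at 0.985, and Ifit2 and Ifitm3 had the lowest value, -0.13. The 5 named genes outside the set whose values were most like the mean profile were Iigp1 (r = 0.992), Tgtp1 (0.990), Ifit3b (0.988), Trim30d (0.979) and Ifih1 (0.978), over the same 12 arrays. Iigp1 and Tgtp1 are interferon-inducible GTPases, and Ifih1 is a sensor of double-stranded RNA.

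Close relatives of the set were followed through a list of 10 genes, of which 9 had a probe and 7 were tested. Irradiation of ATM-WT cells raised Ifit3b (log2 difference 3.61 ± 0.483, SE, adjusted p = 0.00411) and Ifi44l (adjusted p = 0.0205), and the median of the 7 was 0.21. Ifi44l was not well above background on any nonirradiated ATM-WT array, so its 5.4-fold difference was taken against signal near background. Nonirradiated ATM-KO cells had more Ifit3b than ATM-WT cells (2.32 ± 0.483, SE, adjusted p = 0.0485), the only one called, and 0 were called for irradiation of ATM-KO cells, for the interaction or between irradiated genotypes. In ATM-KO cells, Ifi44l and Ifit1bl1 had irradiation differences of 2.32 and 2.92 that passed only with pairs (adjusted p = 0.0205 and 0.0157). The Ifitm3 relatives Ifitm1, Ifitm2, Ifitm5 and Ifitm6 were well above background on all 12 arrays, and none was called in any of the 5 comparisons.

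Of 17 interferon ligands and receptors, 13 had a probe and 6 were tested. Ifnb1, which encodes interferon beta, was well above background on 5 arrays, and its mean levels were -7.48, -5.71, -5.24 and -3.83 in nonirradiated ATM-WT, irradiated ATM-WT, nonirradiated ATM-KO and irradiated ATM-KO cells. As for Ifit1 and Rsad2, the mean was lowest in nonirradiated ATM-WT and highest in irradiated ATM-KO cells, while the middle groups stood in the other order. The difference between nonirradiated genotypes was called (adjusted p = 0.0146), although the probe was well above background on 0 nonirradiated ATM-WT arrays and 1 nonirradiated ATM-KO array, so no fold is given. The irradiation differences of 1.76 in ATM-WT (adjusted p = 0.0922) and 1.40 in ATM-KO cells (adjusted p = 0.278) did not pass unpaired. The first passed with pairs (adjusted p = 0.0283). The difference of 1.88 between irradiated genotypes passed only with the replicate number as a block shared by both genotypes (adjusted p = 0.0387). The probe was well above background on 1 irradiated ATM-WT array and 3 irradiated ATM-KO arrays. The sizes of these differences thus rest partly on signal near background. The type I receptor chains Ifnar1 and Ifnar2 were well above background on all 12 arrays, with group means of 1.57 to 1.62 and 2.73 to 3.02, and neither they nor the other receptors tested were called.

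Of 16 genes of interferon signal transduction and transcription, all tested, 4 were called higher after irradiation of ATM-WT cells and 0 lower, with a median of 0.21. They included Usp18, which restrains receptor signalling (3.15 ± 0.250), and Irf7, the amplifying transcription factor (3.77 ± 0.354, log2, SE, adjusted p = 0.000154 and 0.000611). In nonirradiated ATM-KO against ATM-WT cells 3 were called higher and 0 lower, among them Usp18 at 3.02 and Irf7 at 3.08 (adjusted p = 0.000147 and 0.00111). None was called unpaired for irradiation of ATM-KO cells, for the interaction or between irradiated genotypes. With pairs, Irf7 passed for irradiation of ATM-KO cells (1.90, adjusted p = 0.014) and Usp18 for the interaction (-2.43, adjusted p = 0.0291). Between irradiated genotypes Irf7 (1.2) and Irf8 (-1.49) passed only with the replicate number as a block shared by both genotypes (adjusted p = 0.0473 and 0.0196).

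A list of 45 other interferon-induced antiviral genes had 37 tested. After irradiation of ATM-WT cells 16 were called higher (28 with pairs) and 0 lower, with a median log2 difference of 1.78, and in nonirradiated ATM-KO against ATM-WT cells 14 were called higher and 0 lower, with a median of 1.51. The 3 with the lowest adjusted p in both comparisons, Oas1a, Oasl2 and Oasl1, belong to the oligoadenylate synthetase family, in which Oas1a makes the activator of RNase L. Oas1a differed by 3.58 ± 0.253 (adjusted p = 9.43e-05) for irradiation and 5.04 ± 0.253 (adjusted p = 2.29e-06) for genotype (log2, SE). For irradiation of ATM-KO cells 0 were called unpaired and 6 with pairs, with a median of 0.66. Oas1a was the single gene of this list called for the interaction unpaired (2 were called with pairs), at -2.99 ± 0.357 (SE, adjusted p = 0.0414), and between irradiated genotypes, at 2.05 ± 0.253 (SE, adjusted p = 0.0113). The medians of these 2 comparisons were -1.04 and 0.33.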

How the data were processed

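Agilent arrays (design 014868) were read with Feature Extraction 10.7.1.1, per the file headers, into the deposited intensity of each spot, while the submitters' processing notes name version 11.0. The authors also deposited log2 values per probe, which followed the scanner values (lowest r 0.9975 over 41174 matched probes) after scaling to the 75th percentile and centring each probe on its median. These were used as an alternative. Here, processed intensity was converted to log2 minus the 75th percentile of each array, without control spots and outlier spots. Accessions were matched to a RefSeq gene table, which named 25097 probes, and a gene was represented by its brightest probe. Features well above background on all 3 arrays of a group for any of their probes were tested. A group-means model on all 12 arrays was fitted with limma 3.58.1 in R 4.3.3, with eBayes (8 residual and 4.12 prior degrees of freedom) and Benjamini-Hochberg adjustment at 0.05. The scripts were tested on simulated data.

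Genes named are the members, up to 3 called genes with the lowest adjusted p per list (or 2 with the lowest p, some left out for length, and some not reported here) and the 5 most correlated named genes. For a probe not well above background on any array of a group, a difference was taken against signal near background and is not a bound. The members and lists were chosen with earlier results of these data known. Normexp with an offset of 50 used median signal, since no mean signal column was read. Same-numbered arrays were taken as pairs within a genotype, where every correlation of their deviations was over 0.1 (0.480 to 0.850 in ATM-WT and 0.269 to 0.510 in ATM-KO cells, against up to 0.301 and 0.336 between different numbers). Between genotypes this held for irradiated arrays (0.218 to 0.629) and not for nonirradiated ones (-0.22 to 0.18). For comparisons between genotypes, the replicate block was 1 term for the replicate number, shared by both genotypes and fitted on irradiated and nonirradiated arrays together. Promoters were searched with Python 3.11.15. No genome coordinates of probes are given, since the header's build (mm9) differs from that of the gene table.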

Additional observations from a re-analysis of the deposited data

How the results depend on the processing

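Over the members' log2 differences, 916 values under alternatives kept their direction and side of the threshold, 36 lost a call, 3 gained one and 21 changed sign. Of 122 counts of members called, 114 stayed within 1.5 times the count given above. With normexp background correction 3 members were called for irradiation in ATM-WT cells and 3 between nonirradiated genotypes. The shares of all features called, in either direction as for each share below, were 0.239% and 0.336%. Normexp moved the median of all features to -0.16 and -0.13. Between nonirradiated genotypes the count was 1 with slide as a fixed block (0.184% of all features). It was 1 to 6 when each array was left out in turn (0.309% to 1.23%). With the replicate block the count was 2 for irradiation in ATM-KO cells (1.99% of all features), against 0 (0.00542%). Between genotypes the replicate block gave 6 nonirradiated (1.71%), where the numbers did not pair the samples, and 0 irradiated (0.754%). The replicate block changed no other count of members called. Without replicate 1 of all groups, chosen after the data were seen, 1 member was called between irradiated genotypes, among 1044 features in all (5.66%).

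Ifitm3 irradiation in ATM-KO cells was 0.20 with quantile normalization, 0.19 without replicate 1 with or without the replicate block, and -0.237 to 0.069 over arrays left out. The interaction of Ifit2 was -0.15 with averaged probes, -0.00396 without replicate 1 with or without the block, and -0.41 to 0.91 over arrays left out, and that of Cmpk2 was 0.0429 with normexp. Between nonirradiated genotypes Ifit2 was -0.40 with normexp and -0.34 to 0.53 over arrays left out. Between irradiated genotypes Bst2 was -0.14 with slide as a fixed block, Ifitm3 0.00744 with median centring, and over arrays left out Ifit2 was -0.19 to 1.13, Cmpk2 -0.0734 to 0.657 and Ifitm3 -0.28 to 0.12. The cause was not tested. Signal near background limits the dimmer probes of Rsad2, Cmpk2 and Ifit2. The main probes of Rsad2, Cmpk2 and Ifi44 were well above background on every nonirradiated ATM-WT array, at low signals. These were 28.0 to 50.1, 23.6 to 30.9 and 18.9 to 73.3. The sizes of their folds against these arrays thus depend on the background correction, and were smaller with normexp. The main Ifit2 probe was dim there too, at 18.3 to 97.7. Its irradiation difference in ATM-WT cells was 0.16 with normexp, against 1.22.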

Other observations

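Within groups, the antiviral genes did not all deviate together. After group means were removed, the correlation of a gene with the mean of the other members over the 12 arrays was 0.909 for Ifit1, 0.890 for Ifi44, 0.835 for Rsad2, 0.816 for Ifit3, 0.815 for Ifit2 and 0.626 for Cmpk2, but -0.59 for Bst2 and -0.61 for Ifitm3. These are descriptions over arrays that share the groups and the scaling. On the irradiated ATM-WT and ATM-KO arrays, replicate 1 was the highest array for Ifit1, Ifit2, Ifit3, Rsad2, Cmpk2 and Ifi44, and the lowest for Bst2 and Ifitm3. The 75th percentile used for scaling was 757 and 708 on these replicate 1 arrays, against 432 to 513 on the other irradiated ones. Before scaling, Bst2 was highest on replicate 1 in ATM-WT cells (100444 against 76298 and 72346) and lowest in ATM-KO cells (116842 against 143636 and 140790). Unscaled Ifitm3 was neither highest nor lowest on replicate 1. The part of the scaling in these ranks was not tested. Bst2 and Ifitm3 encode membrane proteins that act on the virus particle at release or entry.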
